A study of Mus musculus with 8 samples.

Results

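The response to heat shock was compared between RNA retained on chromatin and RNA of the cytoplasm in fibroblasts of the mouse embryo, which are cultured connective tissue cells. For each gene, the log2 ratio of RPKM (reads scaled by gene length and by library total) after heat shock over control was taken in chromatin and, separately, in cytoplasm. The difference between fractions is the chromatin log2 ratio minus the cytoplasm log2 ratio, so that a positive difference means a higher ratio in chromatin. The 14994 genes listed in all 4 libraries were taken, of 28785 genes listed in any of them. Of these, 8965 genes (59.8%) had at least 20 reads on average over the 2 libraries of each fraction, and counts below are over these genes. A gene was called up or down in a fraction at 2-fold or more. It was called in a single fraction only where the other fraction differed by less than 2-fold and the log2 difference between fractions was at least 1 in size.

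All 4 groups were mouse embryonic fibroblasts with the genotype TSC2+/+ on the strain C57BL/6J, and each group held 1 library. Control cells were left without heat shock. The other cells were heat shocked at 42 °C for 1 h and then kept at 37 °C for 3 h, so the libraries show the recovery phase and not the shock itself. Cytoplasm was separated over a sucrose cushion, and the pellet that remained after lysis of the nuclei in a buffer with urea was taken as chromatin. Short RNA fragments were selected on a gel before sequencing, and the lysis and wash buffers held α-amanitin, an inhibitor of RNA polymerase II. The series also holds 4 chromatin libraries of an m6A immunoprecipitation and its inputs, which were not analysed here. Whether the 4 libraries came from separate cultures is not given in the sources used here. With 1 library per group there is no replicate check and no test: every value describes these libraries, and the intervals given cover counting error only. Amplified reads carried no molecular identifiers and may repeat a molecule, which makes these intervals too narrow even for counting.

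Heat shock unfolds proteins and activates heat shock factor 1, which binds heat shock elements, inverted repeats of the unit nGAAn, and drives transcription of chaperone genes. At the same time transcription and splicing of many other genes are reduced, and translation of most mRNAs is slowed. RNA on chromatin is mostly nascent or not yet released, with introns, together with RNAs that act in the nucleus. RNA in the cytoplasm is mostly spliced and long-lived, so that after a few hours it still holds molecules made before the shock.

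The libraries held 18364642 reads for control chromatin, 19536459 for chromatin after heat shock, 8292312 for control cytoplasm and 11131382 for cytoplasm after heat shock. The files identify genes only by Ensembl identifier. Names were assigned here from known identifiers and set against the RefSeq gene span, so 892 of the 8965 genes have a name and leading genes are leading only among these. The names of Egr1, H2-Q1, Hsph1, Dnajb1, Dnaja1, Dnajb4, Dnajb6, Cryab, Hsp90aa1, Hspa5, Atf3, Osgin1, Nupr1, Pcca, Mettl3, Bbc3, Chpt1, Actb, Mt1, Rpl22 and Pecam1 rest on the identifier alone, since the gene length in the files differed from the RefSeq span. Fibroblast markers summed to between 44.4 and 114 RPKM in the 4 libraries, with Fn1, Col1a1, Col1a2 and Vim in each. Marker sums of other cell types were 0.572 to 5.81 RPKM for macrophages and leukocytes, 0.0075 to 1.93 for endothelium, 0.00373 to 0.133 for neural cells and 22.7 to 35.8 for epithelium. The epithelial sum came from the keratins Krt8, Krt14 and Krt18, while Epcam was not listed in control cytoplasm. Adgre1, Csf1r, Lyz2, Aif1, Pecam1 and Tie1 were not listed in control cytoplasm either. Their part in the results was not tested.

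The log2 ratio had a median of -0.13 in chromatin and -0.61 in cytoplasm over the 8965 genes. The difference between fractions had a median of 0.48, with quartiles of -0.10 and 1.01. Taken over genes, which do not stand for replicates, the log2 ratios of the fractions had a Pearson correlation of 0.48, and 61.5% of genes had the same sign in both. The log2 difference was 1 or more for 2281 genes (25.4%) and -1 or less for 683 genes (7.62%). Of these called differences, 77% were thus higher in chromatin. That split depends on the scale: it was 41.8% with the median ratio of each fraction set to 0, 47.0% with each library set to the same RPKM sum and 74.9% with library totals taken without the 10 genes with most reads. These scales add 0.13, -0.64 and 0.22 to every chromatin log2 ratio, and 0.61, -0.23 and 0.26 to every cytoplasm log2 ratio. A chromatin log2 ratio between -0.22 and 0.64, or a cytoplasm log2 ratio between -0.61 and 0.23, therefore has another sign under at least 1 of these scales, which holds for the cytoplasm medians of most gene lists below. A level in a bulk fraction is relative to the rest of that fraction, and fewer cells of a type and less RNA per cell cannot be told apart. Values below are set beside the medians of all genes, -0.13 in chromatin, -0.61 in cytoplasm and 0.48 for the difference, which move with the scale by the same amount.

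Of the 8965 genes, 241 (2.69%) were up in both fractions and 664 (7.41%) were down in both. In chromatin alone, 576 genes (6.42%) were up and 320 (3.57%) were down. In cytoplasm alone, 159 genes (1.77%) were up and 620 (6.92%) were down. The fractions went in opposite directions for 87 genes, of which 51 (0.569%) were up in chromatin and down in cytoplasm and 36 (0.402%) were down in chromatin and up in cytoplasm. The remaining 6298 genes (70.3%) met none of these rules. Counted by fraction, 944 genes (10.5%) were up and 1530 (17.1%) down by 2-fold or more in chromatin, and 471 (5.25%) were up and 1969 (22%) down in cytoplasm. These counts move with the scale: with the median ratio of each fraction set to 0, 378 genes were up in both, 140 down in both and 79 down in cytoplasm alone, and with each library set to the same RPKM sum 1913 were down in both.

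**Figure D1:**
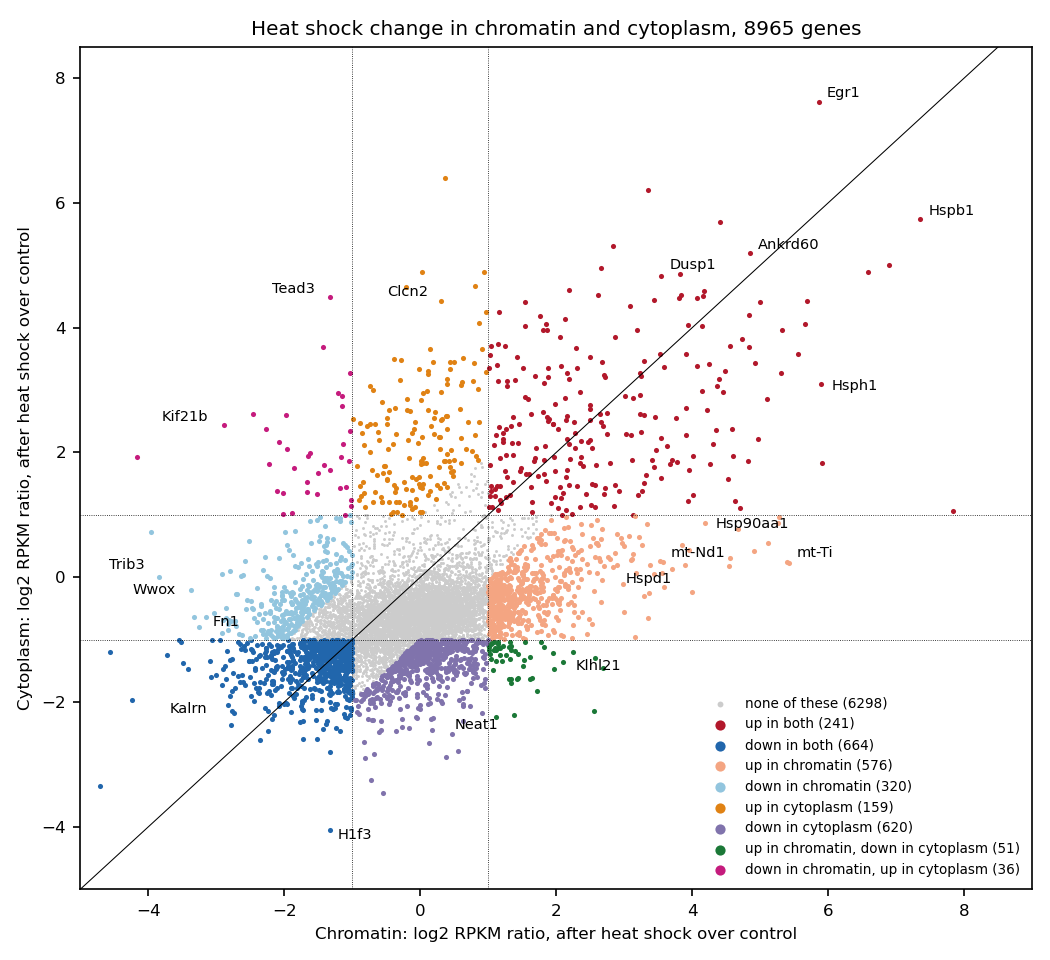
Log2 RPKM ratio after heat shock over control in chromatin (horizontal) and cytoplasm (vertical), 1 point per gene, for 8965 genes from 1 library per group. Colours mark the 8 classes with their gene counts, dotted lines mark 2-fold, and the diagonal marks equal ratios. The 576 genes up in chromatin alone lie to the right of the centre and the 620 down in cytoplasm alone lie below it.

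Hspb1, Hsph1 and Dnajb1, which encode heat-inducible chaperones or their partners, were up in both fractions. Hspb1, which encodes the small heat shock protein HSP27, stood at 0.265 RPKM in control chromatin, 43.5 after heat shock, 0.660 in control cytoplasm and 35.4 after heat shock. It was 164-fold higher in chromatin (95% interval 83.1 to 381, exact Clopper-Pearson here and below) and 53.7-fold higher in cytoplasm (28.1 to 118), from 8 and 9 control reads. The difference was 1.61, with an exact conditional interval of 0.06 to 3.19. Hsph1, the HSP110 nucleotide exchange factor of HSP70, went from 1.78 to 107 RPKM in chromatin and from 2.16 to 18.6 in cytoplasm. That made it 59.8-fold higher in chromatin and 8.59-fold higher in cytoplasm, with a difference of 2.80 (2.61 to 2.98). Dnajb1, the J-domain partner of inducible HSP70, went from 0.774 to 31.1 RPKM in chromatin and from 1.81 to 28.3 in cytoplasm, with a difference of 1.36 (0.78 to 1.94). Both fractions thus held these RNAs after recovery, and each of the 3 had the larger ratio in chromatin.

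Other members of the chaperone network were split between both fractions and chromatin alone. Among small heat shock proteins and the co-chaperone Bag3, 3 of 4 genes were up in both, against 2.69% of all genes: Hspb1, Cryab and Bag3. Cryab, the αB-crystallin chaperone, was 26.1-fold higher in chromatin and 2.15-fold higher in cytoplasm, whereas Bag3, which links HSP70 to autophagy, was 6.32-fold and 5.61-fold higher. The difference for Bag3 was 0.17 (-0.19 to 0.52), an interval that includes 0. Of 19 J-domain genes, 3 were up in both (Dnaja1, Dnajb1 and Dnajb4) and 15 met no rule, against 70.3% of all genes. The list's median difference was 0.54, close to that of all genes. Of 9 HSP70 and HSP110 genes, 2 were up in both (Hsph1 and Hspa4l) and Hspa8 was up in chromatin alone. The other 6 met no rule, against the same 70.3%. The mitochondrial HSP70 Hspa9, in contrast, went from 17.0 to 10.9 RPKM in chromatin and from 13.6 to 8.59 in cytoplasm, a difference of 0.01 (-0.10 to 0.13). The inducible HSP70 genes Hspa1a and Hspa1b were not listed in control cytoplasm and had 183 and 304 reads there after heat shock, so they are not among the 14994 genes. In chromatin, Hspa1a went from 5 to 244 reads.

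**Figure D2:**
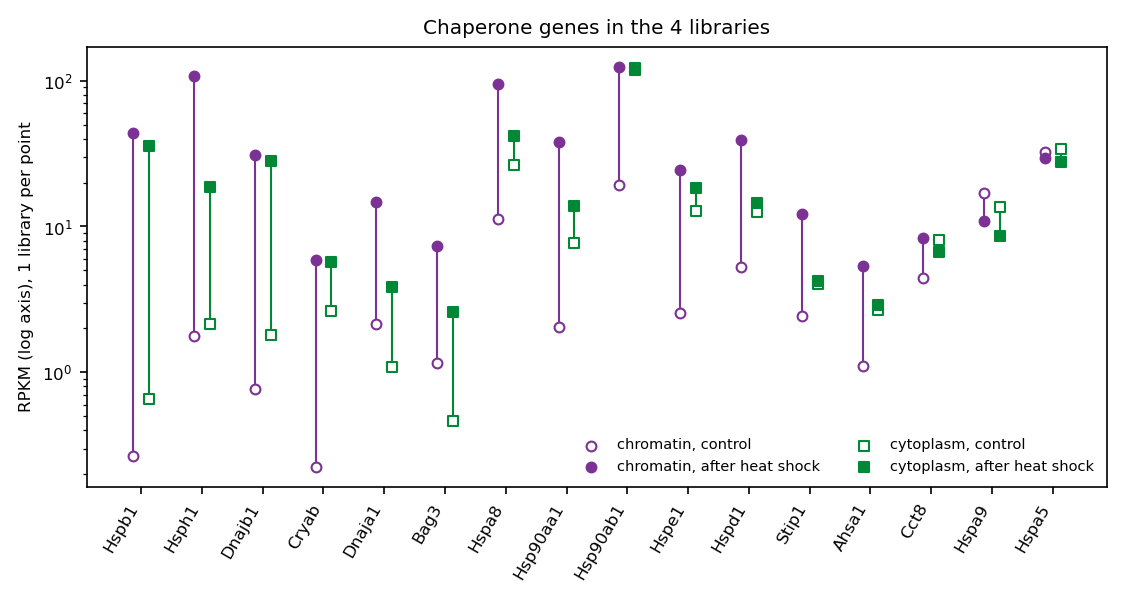
RPKM on a log axis of 16 chaperone genes in the 4 libraries, 1 library per point, with open symbols for control and filled symbols for heat shock. From Hspb1 to Bag3 both fractions are higher after heat shock, from Hspa8 to Ahsa1 the chromatin points are far apart and the cytoplasm points close (Hsp90ab1 stood at 122 and 118 RPKM in cytoplasm), and Hspa9 and Hspa5 are lower after heat shock in both.

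Hsp90ab1, Hsp90aa1 and Hspa8 were up in chromatin alone. Hsp90ab1, the constitutive cytosolic HSP90, went from 19.3 to 124 RPKM in chromatin and from 122 to 118 in cytoplasm. It was 6.41-fold higher in chromatin (6.11 to 6.72) and 0.968 times its control level in cytoplasm (0.935 to 1.00), a difference of 2.73 (2.64 to 2.81). Hsp90aa1, the inducible cytosolic HSP90, went from 2.06 to 37.7 RPKM in chromatin and from 7.67 to 13.9 in cytoplasm, and its difference was 3.33 (3.14 to 3.51). Hspa8, the constitutive HSP70, was 8.41-fold higher in chromatin and 1.58-fold higher in cytoplasm, with a difference of 2.41 (2.26 to 2.57). The class of these genes depends on the scale: with the median ratio of each fraction set to 0, Hspa8 and Hsp90aa1 were up in both fractions, and Hsp90aa1 was so too with library totals taken without the 10 genes with most reads, while Hsp90ab1 kept its class under all 3 scales. Of 19 HSP90 and co-chaperone genes, 7 were up in chromatin alone, against 6.42% of all genes, and 9 had a difference of 1 or more, against 25.4%. The 7 included Stip1, which joins HSP70 to HSP90 (chromatin 2.45 to 12.1 RPKM, cytoplasm 4.01 to 4.21), and Ahsa1, which stimulates the HSP90 ATPase (chromatin 1.10 to 5.38 RPKM, cytoplasm 2.66 to 2.91).

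Hspd1 and Hspe1 encode the mitochondrial chaperonin HSP60 and its lid HSP10 and lie head to head on chromosome 1. Both were up in chromatin alone, but Hspe1 was up in both fractions with the median ratio of each fraction set to 0. Hspd1 went from 5.28 to 39.3 RPKM in chromatin and from 12.6 to 14.5 in cytoplasm, a difference of 2.69 (2.55 to 2.84). Hspe1 went from 2.55 to 24.4 RPKM in chromatin and from 12.8 to 18.3 in cytoplasm, a difference of 2.74 (2.42 to 3.06). The intervals of their differences overlap. Among all 10 chaperonin genes, 7 had a difference of 1 or more, against 25.4% of all genes, and 3 passed the rule for chromatin alone (Hspd1, Hspe1 and Tcp1). The 8 subunits of the cytosolic chaperonin, which folds actin and tubulin, had cytoplasm log2 ratios between -0.57 and -0.22 and chromatin log2 ratios between 0.12 and 1.05.

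Promoter windows of RefSeq (GRCm38.p6, 250 bases before to 50 after each start) were searched on both strands for a full heat shock element, GAANNTTCNNGAA or TTCNNGAANNTTC, and for a pair of its units, GAANNTTC or TTCNNGAA. The pair lies within the full element, so their matches overlap. The full element was present for 0.662% of 27025 genes and the pair for 17% of them. The full element was found for Hsph1 and Chordc1, which were up in both fractions, for Hspd1 and Hspe1, which were up in chromatin alone, and for 5 named genes of no class (Dnajb6, Hnrnpa2b1, Rpl22, Rps18 and Tra2b). Counting also genes with fewer reads, the pair was found for 12 of 48 named genes up in both fractions that have a window (25%), 22 of 137 up in chromatin alone (16.1%), 7 of 44 up in cytoplasm alone (15.9%) and 5 of 74 down in both (6.76%). It was found for 13 of 72 down in chromatin alone (18.1%), 13 of 81 down in cytoplasm alone (16%) and 27 of 244 of no class (11.1%). Of the genes with opposite directions, 3 of 10 up in chromatin (30%) and 1 of 10 down in chromatin (10%) held it. Among the chaperone lists it was found for 5 of 6 genes of the small heat shock proteins and Bag3 (83.3%), 5 of 9 chaperonins (55.6%), 5 of 19 J-domain genes (26.3%), 3 of 12 HSP70 and HSP110 genes (25%) and 3 of 14 HSP90 and co-chaperone genes (21.4%). The promoters below are shown because they belong to genes up in both fractions (Hspb1, Hsph1) or in chromatin alone (Hspe1), with the matched units in capitals and 5′ to 3′ on the strand of the gene. The Hspe1 stretch also lies before Hspd1, on its other strand.
Hspb1, chr5:135887762-135887869, plus strand: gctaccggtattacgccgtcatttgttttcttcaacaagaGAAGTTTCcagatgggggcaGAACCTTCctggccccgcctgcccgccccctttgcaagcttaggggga
Hsph1, chr5:149636337-149636409, minus strand: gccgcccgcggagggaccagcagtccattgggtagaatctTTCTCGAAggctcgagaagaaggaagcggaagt
Hspe1, chr1:55088019-55088116, plus strand: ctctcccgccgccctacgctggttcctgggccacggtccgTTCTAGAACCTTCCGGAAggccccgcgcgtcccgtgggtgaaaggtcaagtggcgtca
The Hspe1 stretch holds 3 overlapping unit pairs, which form the full element, and the Hspb1 stretch holds 2 separate pairs. The full element of Hsph1 lies after its start and is not shown. A match is a description of these letters and not a bound site, and no match says only that the letters are not in the window.

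Several immediate early genes, which are transcribed within minutes of a stimulus, were up in both fractions, and 10 of the 16 counted had the larger ratio in cytoplasm. The list's median difference was -0.32, against 0.48 for all genes. Of these 16, 7 were up in both, against 2.69% of all genes, and 5 had a difference of -1 or less, against 7.62%. Egr1, a zinc finger transcription factor, went from 0.137 to 7.97 RPKM in chromatin and from 0.0234 to 4.61 in cytoplasm. Its 1 read in control cytoplasm gives a cytoplasm ratio of 197 with a counting interval of 35.1 to 7830, and a difference of -1.76 (-7.18 to 0.99) that includes 0. Dusp1, a phosphatase that turns off MAP kinases, went from 2.77 to 32.4 RPKM in chromatin and from 0.617 to 17.6 in cytoplasm, a difference of -1.29 (-2.17 to -0.50). Jun, a subunit of AP-1, was 2.70-fold higher in chromatin and 4.42-fold higher in cytoplasm, with a difference of -0.71 (-1.18 to -0.26). Atf3, a stress-induced repressor that is also a target of ATF4, went from 0.669 to 4.79 RPKM in chromatin and from 0.0429 to 1.70 in cytoplasm. The difference for Atf3 was -2.47 (-3.27 to -1.77), the lowest of the list. With 1 RPKM added to every value, the difference was 0.42 for Atf3 and 0.52 for Egr1, so the sign of both turned. The AP-1 subunit Fosb was also up in both but with the larger ratio in chromatin (difference 1.15), Fosl1 was up in chromatin alone, and Klf2 was down in cytoplasm alone. Myc stood at 10.3 RPKM in chromatin in both conditions.

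Among other named genes up in both fractions, Gadd45g, a growth arrest and DNA damage gene, went from 1.25 to 21.0 RPKM in chromatin and from 0.606 to 13.5 in cytoplasm. Ankrd60, an ankyrin repeat gene, went from 0.0842 to 2.43 RPKM in chromatin and from 2.21 to 80.8 in cytoplasm. H2-Q1, a class I histocompatibility gene with near-identical copies that could share its reads, went from 0.0232 to 2.23 RPKM in chromatin and from 1.88 to 56.0 in cytoplasm. Both of these had a difference whose interval includes 0, at -0.34 (-1.12 to 0.54) for Ankrd60 and 1.69 (-0.23 to 4.77) for H2-Q1. Zfand2a, an arsenite- and heat-induced proteasome cofactor, had log2 ratios of 4.97 in chromatin and 2.22 in cytoplasm.

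RNAs encoded by the mitochondrial genome were mostly higher in the chromatin pellet after heat shock, with smaller median ratios in cytoplasm. Their cytoplasm medians were 0.33 for tRNAs and 0.32 for messenger and ribosomal RNAs, above the -0.61 of all genes. All 22 mitochondrial tRNAs, which were listed in all 4 libraries, were at least 2-fold higher in chromatin. Of these, 20 were up in chromatin alone, against 6.42% of all genes, and 2 were up in both, against 2.69%. Very short genes largely shared this: of the 117 genes of up to 200 bp, tRNAs included, 51.3% were up in chromatin alone and 5.13% in both. The median log2 ratio of the tRNAs was 3.64 in chromatin, with a range of 2.28 to 7.84, and 0.33 in cytoplasm, with a range of -0.16 to 1.14. The tRNA for isoleucine, mt-Ti, went from 21.3 to 912 RPKM in chromatin and from 2060 to 2410 in cytoplasm, a difference of 5.20 (4.64 to 5.82). It led the genes up in chromatin alone, and the next 5 were tRNAs as well. Among these, mt-Tt and mt-Tr were up in both fractions under 2 of the 3 other scales. The complex I subunit mt-Nd1 went from 7.91 to 91.5 RPKM in chromatin and from 146 to 174 in cytoplasm, a difference of 3.27 (3.00 to 3.55). The small mitochondrial ribosomal RNA mt-Rnr1 went from 282 to 960 RPKM in chromatin and from 3620 to 3530 in cytoplasm, a difference of 1.80 (1.75 to 1.86). The large one, mt-Rnr2, was up in chromatin alone but met no rule with each library set to the same RPKM sum. Summed over 14 mitochondrial messenger and ribosomal RNAs, chromatin held 729 RPKM without and 2310 with heat shock, and cytoplasm held 8670 and 7750. Before heat shock the mitochondrial level of the chromatin pellet was thus far below that of cytoplasm, and after it the gap was smaller.

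Some small RNAs made by RNA polymerase III also had larger ratios in chromatin, as short genes in general did. Of 5 abundant small structured RNAs, 3 had a difference of 1 or more, against 25.4% of all genes. The median difference was 1.38 for all genes of up to 200 bp and 0.91 for those of 200 to 5000 bp. The Y RNA Rny3, a partner of the Ro protein, went from 126 to 460 RPKM in chromatin and from 2690 to 3380 in cytoplasm, a difference of 1.54 (1.32 to 1.76). Rpph1, the RNA of ribonuclease P, went from 93.7 to 324 RPKM in chromatin and from 2050 to 1930 in cytoplasm. Rn7sk, which holds the elongation factor P-TEFb inactive, went from 1020 to 2500 RPKM in chromatin and from 2170 to 2300 in cytoplasm, and it met no rule under 2 of the 3 scales. Rmrp, the RNA of ribonuclease MRP, did not follow, with 7700 and 5340 RPKM in chromatin and 6450 and 5390 in cytoplasm.

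Genes of DNA replication stood above the median of all genes in chromatin and close to it in cytoplasm. All 15 had a difference of 1 or more, against 25.4% of all genes, with a median of 1.84. Their median log2 ratio was 1.28 in chromatin and -0.58 in cytoplasm. Mcm3, a subunit of the replicative helicase, went from 2.27 to 7.28 RPKM in chromatin and from 4.10 to 3.21 in cytoplasm, a difference of 2.04 (1.83 to 2.24). Pcna, the sliding clamp of DNA polymerases, went from 1.52 to 5.36 RPKM in chromatin and from 3.86 to 2.40 in cytoplasm, a difference of 2.50 (2.02 to 2.99). The helicase genes Mcm2, Mcm3, Mcm4, Mcm5, Mcm6 and Mcm7 were all up in chromatin alone, but with each library set to the same RPKM sum Mcm2, Mcm5 and Mcm7 met no rule, while Mcm3 kept its class. Of 17 mitosis genes, 14 had a difference of 1 or more, against 25.4% of all genes, with a median of 1.39; the spindle motor Kif11 went from 1.12 to 3.16 RPKM in chromatin and from 0.804 to 0.555 in cytoplasm, and met no rule with the same RPKM sum.

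Genes of ribosome production and translation also had median differences above that of all genes. Of 74 cytosolic ribosomal protein genes, 34 had a difference of 1 or more, against 25.4% of all genes, and 12 were up in chromatin alone, against 6.42%. Their differences ranged from 0.03 to 1.80 with a median of 0.97, against 0.48 for all genes. Their medians were 0.54 in chromatin and -0.42 in cytoplasm. Rpl4, for example, went from 14.5 to 26.3 RPKM in chromatin and from 43.6 to 33.1 in cytoplasm. Short genes in general had similar shares. Among all genes of 200 to 5000 bp, 46.2% had a difference of 1 or more and 15.7% were up in chromatin alone. Among those of 5000 to 20000 bp, the shares were 33.3% and 7.8%. Against the same 25.4%, 16 of 20 nucleolar ribosome assembly genes and 10 of 16 translation factors had a difference of 1 or more. Among small nucleolar RNA host genes, whose introns carry guide RNAs for ribosomal RNA modification, 5 of 8 did. Snhg8 had the highest of these, at 3.22 (2.80 to 3.64), with 11.5 and 54.1 RPKM in chromatin and 25.6 and 13 in cytoplasm.

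Genes of cholesterol metabolism had higher ratios in chromatin than in cytoplasm. Insig1, which holds back the sterol sensor SCAP, had a difference of 3.00 (2.57 to 3.42), and Idi1, an isomerase of the synthesis pathway, one of 2.61 (2.03 to 3.21). Sqle and Hmgcs1, enzymes of the same pathway, were down in cytoplasm alone, though both met no rule with the median ratio of each fraction set to 0. Of the list's 18 genes, 11 had a difference of 1 or more, against 25.4% of all genes. The median log2 ratio was 0.55 in chromatin and -0.80 in cytoplasm, and the median difference was 1.41, against 0.48 for all genes. The other 7 included Srebf2, the transcription factor of the pathway, with a difference of 0.19. The sterol regulatory element TCACNCCAC (or GTGGNGTGA) was found in the promoter windows of 1.44% of all genes and, in this list, of Hmgcs1 alone among 13 genes with a window. It is shown in capitals on the strand of the gene:
Hmgcs1, chr13:119690174-119690262, plus strand: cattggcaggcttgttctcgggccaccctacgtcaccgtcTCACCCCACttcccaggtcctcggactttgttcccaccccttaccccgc

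Some named genes were up in chromatin and down in cytoplasm. Klhl21, an adaptor of a ubiquitin ligase that acts in mitosis (chr4:152008891-152017677), went from 1.44 to 6.17 RPKM in chromatin and from 3.40 to 1.33 in cytoplasm, a difference of 3.46 (3.08 to 3.84). Stard4, a carrier of sterols between membranes, had a difference of 2.58 (2.25 to 2.91), and Grwd1, a histone-binding protein of ribosome assembly, one of 2.51 (1.99 to 3.03). Tnfrsf12a, the receptor of the cytokine TWEAK, went from 10.0 to 22.6 RPKM in chromatin and from 10.7 to 4.53 in cytoplasm. The NRF2 targets Srxn1, which repairs oxidized peroxiredoxins, and Osgin1 were in the same class, with differences of 2.45 (1.90 to 2.99) and 2.82 (1.78 to 3.86). Of 12 NRF2 targets, 8 had a difference of 1 or more, against 25.4% of all genes. Hmox1, which degrades heme, was up in chromatin alone (1.75 to 4.67 RPKM, against 2.44 and 2.65 in cytoplasm), but met no rule under 2 of the 3 scales. The 3 scales shift each log2 ratio by less than 1 in size, so none of the 87 genes with opposite directions could change sign. Not all stayed past 2-fold in both fractions: Klhl21 did so under 2 of the scales, and Stard4, Grwd1, Srxn1 and Tnfrsf12a under none.

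Genes down in chromatin alone included targets of ATF4, the transcription factor of the amino acid response. Trib3, a pseudokinase (chr2:152337425-152344060), went from 10.2 to 0.712 RPKM in chromatin and from 0.638 to 0.639 in cytoplasm. It was 14.3-fold lower in chromatin (11.6 to 17.9) and level in cytoplasm (0.632 to 1.60 times control), a difference of -3.84 (-4.59 to -3.10). Asns, asparagine synthetase, went from 8.54 to 1.66 RPKM in chromatin and from 1.95 to 1.29 in cytoplasm, a difference of -1.77 (-2.05 to -1.49). Outside this list, Pck2 and Aldh1l2, mitochondrial enzymes of glucose and folate metabolism, were 9.57-fold and 8.91-fold lower in chromatin and 1.75-fold and 1.55-fold lower in cytoplasm. Of 11 ATF4 targets, 5 had a difference of -1 or less, against 7.62% of all genes, and 0 one of 1 or more, against 25.4%. Only 2 of the 11, Trib3 and Asns, were down in chromatin alone, against 3.57% of all genes. The 5 also included Atf3, which was up in both fractions and whose difference turned sign with 1 RPKM added to every value. The list's median difference was -0.85. Other targets were up in cytoplasm alone: Chac1, which degrades glutathione, went from 14.6 to 10.5 RPKM in chromatin and from 2.03 to 6.04 in cytoplasm. Ddit4, an inhibitor of mTORC1, likewise had 5.56 and 3.00 RPKM in chromatin and 2.19 and 6.04 in cytoplasm. Atf4 itself had 16.2 and 10.9 RPKM in chromatin and 27.0 and 9.68 in cytoplasm, a difference of 0.90. The amino acid response element TGATGNAAT (or ATTNCATCA) was found in the windows of 1.08% of all genes and of 1 of 14 genes of this list, Nupr1, which had too few cytoplasmic reads to be counted.

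Genes of the endoplasmic reticulum had a median difference of -0.23, below that of all genes. Herpud1, a factor of protein degradation at this organelle, went from 9.90 to 2.23 RPKM in chromatin and from 1.90 to 1.60 in cytoplasm, a difference of -1.90 (-2.28 to -1.53). Pdia6, a disulfide isomerase, was in the same class, while Hspa5, the main chaperone of this organelle, went from 32.6 to 29.4 RPKM in chromatin and from 34.2 to 27.8 in cytoplasm. Of the list's 17 genes, 0 had a difference of 1 or more, against 25.4% of all genes, and 2 had one of -1 or less, against 7.62%. In the same list 14 met no rule, against 70.3% of all genes.

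Fn1, fibronectin, went from 70.7 to 12.0 RPKM in chromatin and from 16.7 to 11.7 in cytoplasm, with between 8827 and 87932 reads per library. It was 5.90-fold lower in chromatin (5.80 to 6.00) and 1.42-fold lower in cytoplasm (1.38 to 1.46), a difference of -2.05 (-2.1 to -2.0). Col1a2, a chain of type I collagen, was 4.88-fold lower in chromatin and 1.48-fold lower in cytoplasm, while Col1a1, the other chain, had log2 ratios of -0.44 and -0.62. In the other direction, Col12a1, a collagen of the fibril surface, went from 0.228 to 1.18 RPKM in chromatin and from 0.138 to 0.168 in cytoplasm. Thbs1, thrombospondin, went from 0.646 to 3.98 RPKM in chromatin, with 23 and 44 reads in cytoplasm. Of 19 collagen and matrix genes, 4 were down in chromatin alone, against 3.57% of all genes, and 2 up in chromatin alone, against 6.42%. The other 13 met no rule, against 70.3% of all genes.

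Among named genes down in chromatin alone with 100 reads or more on average in each fraction, Wwox (chr8:114439635-115352712), an oxidoreductase gene at a common fragile site, had the lowest difference. It went from 0.431 to 0.0415 RPKM in chromatin and from 0.0170 to 0.0148 in cytoplasm, that is, from 7228 to 740 reads and from 129 to 150 reads. Its chromatin level was 10.4-fold lower, and its difference was -3.17 (-3.54 to -2.80). Pcca, a subunit of propionyl-CoA carboxylase, came next with a difference of -3.10, and Cpt1a, which admits fatty acids to mitochondria, had one of -2.43.

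A smaller set was up in cytoplasm alone. Clcn2, a chloride channel (chr16:20702435-20717746), went from 1.16 to 1.43 RPKM in chromatin and from 0.204 to 4.41 in cytoplasm. It was 21.6-fold higher in cytoplasm, from 25 and 726 reads, with a difference of -4.13 (-4.81 to -3.51). Micu3, a regulator of mitochondrial calcium uptake, went from 0.767 to 0.462 RPKM in chromatin and from 0.162 to 1.36 in cytoplasm. Spart, a protein of endosomes and lipid droplets, went from 1.14 to 0.769 RPKM in chromatin and from 0.497 to 3.47 in cytoplasm. In both, the chromatin level was lower after heat shock although less than 2-fold. Wtap, a subunit of the m6A writer complex, was in this class too, with 2.36 and 2.30 RPKM in chromatin and 0.960 and 4.24 in cytoplasm, a difference of -2.18 (-2.43 to -1.93). Of the other 17 m6A genes, 14 met no rule, against 70.3% of all genes. Among these 14 were Mettl3 and Mettl14, the catalytic core, with differences of 0.08 and 0.56. Tnfaip3, an inhibitor of NF-kB signalling, was 3.04-fold higher in cytoplasm and 0.916 times its control level in chromatin. Bbc3, a p53 target that promotes cell death, had a difference of -3.04 (-4.21 to -2.0), from 10 and 97 reads in cytoplasm.

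Genes down in chromatin and up in cytoplasm included the named genes with the lowest differences among those with 100 reads or more on average in each fraction, Tead3 and Kif21b. Tead3, a transcription factor that binds YAP (chr17:28331671-28350805), went from 0.970 to 0.388 RPKM in chromatin and from 0.0945 to 2.12 in cytoplasm. It was 2.50-fold lower in chromatin and 22.4-fold higher in cytoplasm, from 15 and 452 reads, a difference of -5.81 (-6.70 to -5.0). Kif21b, a kinesin (chr1:136131390-136178001), was 7.39-fold lower in chromatin and 5.41-fold higher in cytoplasm, a difference of -5.32 (-5.71 to -4.93). Gys1, glycogen synthase of muscle and other tissues, and Elovl4, an enzyme of fatty acid elongation, had differences of -4.01 (-4.48 to -3.55) and -3.59 (-3.91 to -3.27). Chpt1, of phosphatidylcholine synthesis, and Madd, an activator of RAB GTPases, had -3.90 and -3.49. Under the 3 scales all of these stayed in the class, except Chpt1, which did so under 2. The class itself was not stable to low values. With a pseudocount of 1 RPKM and a mean of at least 1 RPKM it held 1 gene in place of 36. The genes named here were chosen by the size of the difference among named genes and belong to none of the gene lists.

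**Figure D3:**
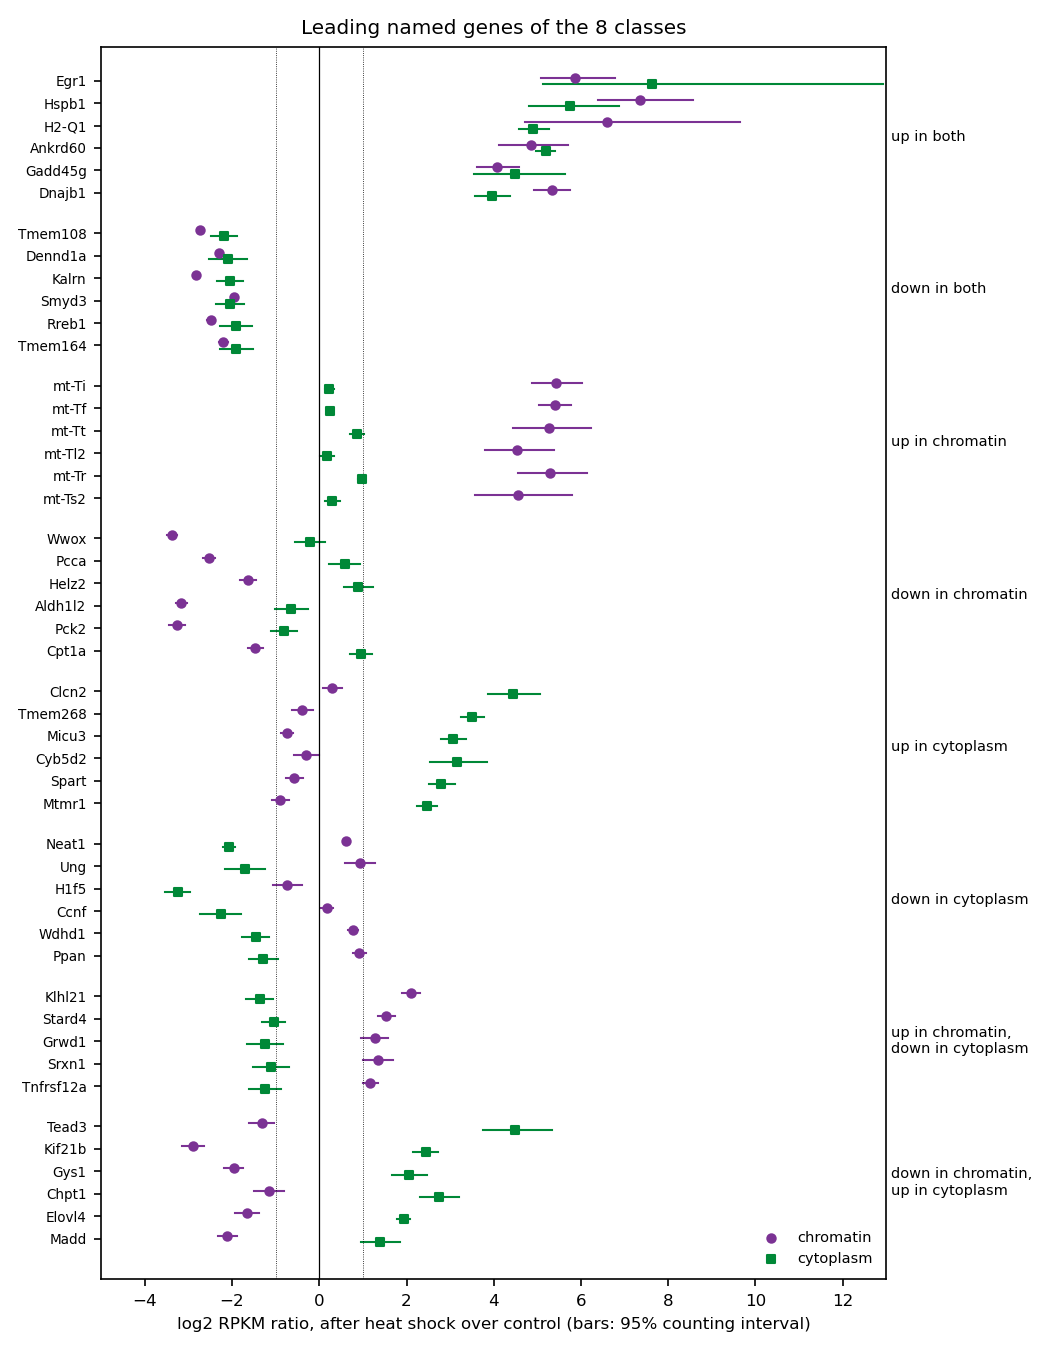
Log2 RPKM ratio after heat shock over control in chromatin (circles) and cytoplasm (squares) for up to 6 leading named genes of each of the 8 classes, from 1 library per group, with bars for the 95% counting interval. Tead3 and Kif21b, near the bottom, lie on opposite sides of 0 with differences of -5.81 and -5.32, and the tRNA mt-Ti has the widest gap in the other direction, 5.20.

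Among named genes down in cytoplasm alone with 100 reads or more in each fraction, Neat1 had the largest difference. Neat1 (chr19:5824708-5845480) is the long noncoding RNA that builds paraspeckles in the nucleus. It went from 131 to 202 RPKM in chromatin and from 10.6 to 2.51 in cytoplasm, a difference of 2.69 (2.56 to 2.83). Malat1, the nuclear speckle RNA, went from 1630 to 1180 RPKM in chromatin and from 91.5 to 75.6 in cytoplasm, so that its difference was only -0.19 (-0.25 to -0.14). Ung, which removes uracil from DNA, Ccnf, a cyclin of an SCF ubiquitin ligase, and Wdhd1, a replisome protein, were also in this class, with differences of 2.64, 2.44 and 2.23. Of 16 SR splicing factors and CLK kinases, 3 were in this class (Srsf4, Srsf10 and Clk2), against 6.92% of all genes, and 13 met no rule, against 70.3%. All 3 met no rule under each of the 3 other scales.

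Linker histone RNAs were lower in both fractions, and more so in cytoplasm for 4 of 5. H1f3 went from 14.6 to 5.78 RPKM in chromatin and from 84.6 to 5.07 in cytoplasm, 2.52-fold lower (1.94 to 3.29) and 16.7-fold lower (12.2 to 23.4). The difference was 2.73 (2.12 to 3.35). H1f5 went from 14.3 to 8.61 RPKM in chromatin and from 130 to 13.7 in cytoplasm, and H1f4 from 11.1 to 6.98 and from 60.3 to 8.41. The exception was H1f0, the replication-independent H1 with a polyadenylated mRNA, which went from 14.7 to 2.86 RPKM in chromatin and from 15.2 to 4.71 in cytoplasm, a difference of -0.67 (-1.10 to -0.24).

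Genes down in both fractions were mostly long. Their median span was 71626 bp, against 27109 bp for all 8965 genes, and 39.6% of them exceeded 100 kb, against 14.5%. Tmem108, a transmembrane protein of 278891 bp, went from 3.75 to 0.562 RPKM in chromatin and from 0.181 to 0.0399 in cytoplasm, a difference of -0.56 (-0.85 to -0.25). Kalrn, a guanine nucleotide exchange factor of 599275 bp, was 7.13-fold lower in chromatin and 4.13-fold lower in cytoplasm. Smyd3, a lysine methyltransferase of 566082 bp, was 3.89-fold and 4.11-fold lower, with a difference of 0.08 (-0.24 to 0.40) that includes 0. RPKM here is per whole gene span, so for such genes most reads can lie in introns. Among shorter genes of this class was Cxcl1, a neutrophil chemokine of 1875 bp, with 33.3 and 5.84 RPKM in chromatin and 13.2 and 4.36 in cytoplasm.

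Gene span, which none of the rules used, ordered both ratios. From the 117 genes of up to 200 bp to the 1304 genes over 100 kb, the median log2 ratio went from 1.33 to -0.55 in chromatin and from -0.06 to -0.76 in cytoplasm. The median difference went through 1.38, 0.91, 0.64, 0.42 and 0.18 over the 5 span classes. Genes up in chromatin alone made up 51.3% of the shortest class and 2.61% of the longest, and genes down in both 0% and 20.2%. Of the 60 genes of up to 200 bp that were up in chromatin alone, 20 were mitochondrial tRNAs. Without the genes of up to 200 bp, 516 genes remained in that class. Genes up in chromatin and down in cytoplasm were the shortest class, with a median span of 7885 bp. The gene lists above were not matched for span.

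**Figure D4:**
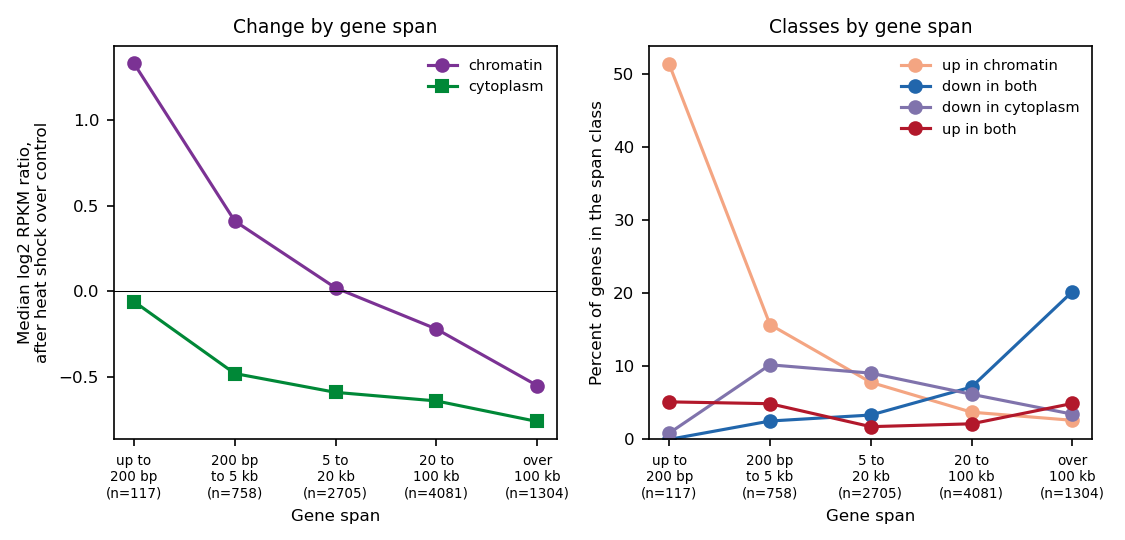
Median log2 RPKM ratio after heat shock over control (left) and share of genes in 4 classes (right, in percent) for 5 classes of gene span, 1 library per group, with the number of genes under each. The chromatin median goes from 1.33 to -0.55 with span and the cytoplasm median from -0.06 to -0.76, so the gap between them narrows.

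Glycolysis genes had a median difference of 0.60 and 14 of 15 met no rule, against 70.3% of all genes. The exception, Hk2, a hexokinase, was down in both. Actin cytoskeleton genes had a median of 0.47, and Actb alone of 13 was up in chromatin alone, with 18.6 and 43.0 RPKM there and 214 and 156 in cytoplasm. YAP and TGF-beta targets had a median of -0.03: Smad7, the inhibitory SMAD, was up in both, and Ccn1 went from 41.6 to 72.3 RPKM in chromatin and from 16.4 to 55.3 in cytoplasm. Chemokines and NF-kB targets had a median of -0.25, with Cxcl1 and Vcam1 down in both. The metallothioneins Mt1 and Mt2, which bind zinc, had differences of 1.02 and 0.86. The p53 targets had a median of 0.75, and Cdkn1a, the cell cycle inhibitor p21, was up in both with log2 ratios of 1.14 and 1.07. The cytoplasm ratio of Cdkn1a came from 11 and 31 reads, with a fold interval of 1.03 to 4.63. With each library set to the same RPKM sum, Cdkn1a, Smad7 and Actb met no rule. Over the 32 lists with a counted gene, 24 had a median difference above that of all genes. Each of the 3 scales moves every difference by the same amount, so this number could not change with them.

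**Figure D5:**
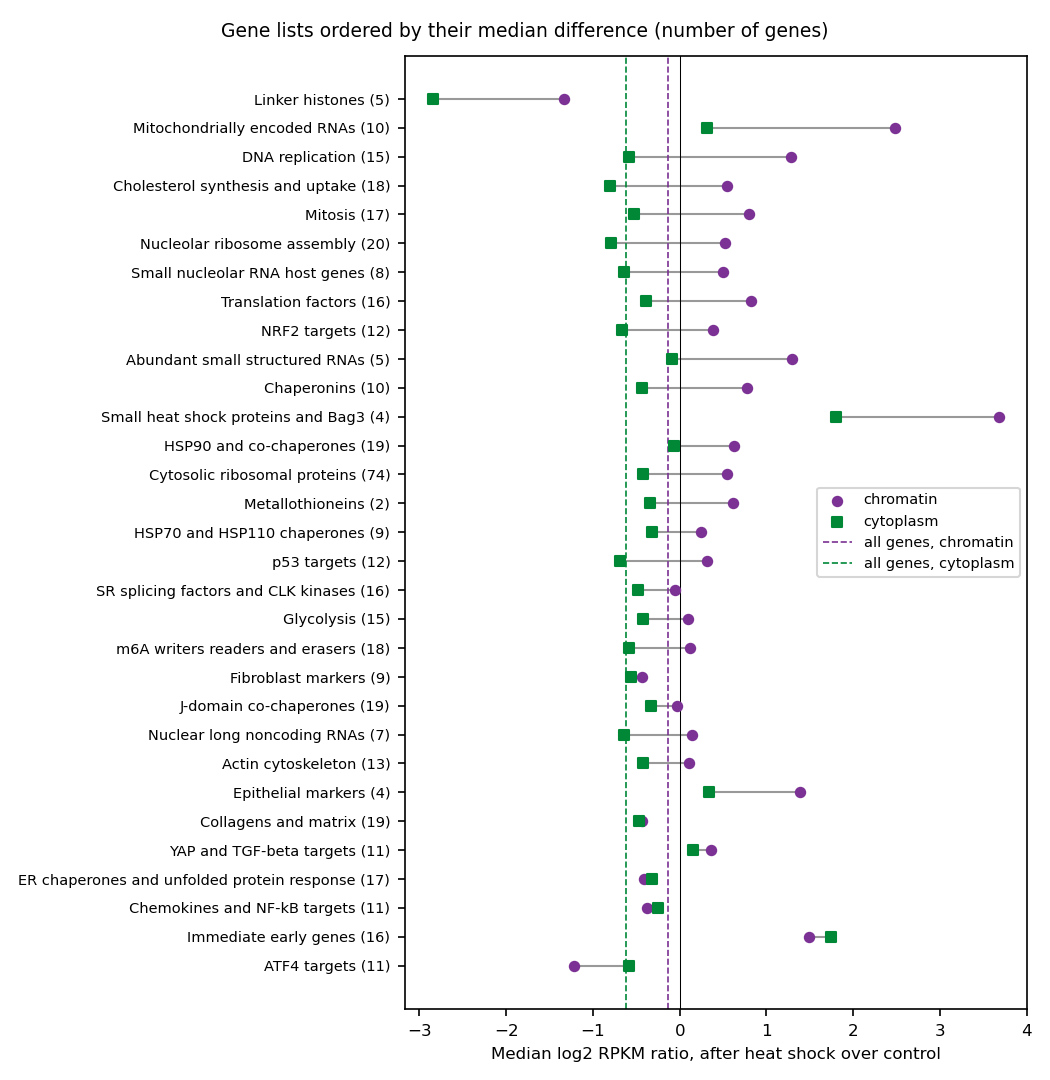
Median log2 RPKM ratio after heat shock over control in chromatin (circles) and cytoplasm (squares) for 31 gene lists, with the number of genes counted, ordered by their median difference, from 1 library per group. Dashed lines mark the medians of all 8965 genes (-0.13 and -0.61); linker histones stand apart at the top left, small heat shock proteins and immediate early genes lie to the right in both fractions, and ATF4 targets, at the bottom, have the lowest median difference.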

How the data were processed

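The authors deposited 1 table per library with RPKM per Ensembl gene. Reads were trimmed with cutadapt and mapped with STAR to GRCm38, per the submitters' processing notes; no versions are named there, and the counter, annotation release and use of strand were not given in the sources used here. Antisense and overlapping genes may therefore share reads, and so may near-identical copies.

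The tables list only genes with a read. Whole reads, library totals and gene lengths were recovered from the steps in the deposited RPKM values. The recovered reads of a library summed to between 98.4% and 99.7% of its recovered total. Recovery and calls were tested on simulated data for the difference between fractions. All 4 totals were recovered, as were exact reads for 96.6% of 14994 genes. All 99 and 98 genes changed by a log2 value of 2 were called, as were 46 of 8701 unchanged genes (0.529%). Simulated reads varied by counting error alone, with no variation between cultures or in amplification. The share of unchanged genes called therefore gives no rate of false calls for the real libraries. Intervals are 95%, Clopper-Pearson for a fold and exact conditional for a difference. Python 3.11.15, pandas 2.3.3 and scipy 1.17.1 were used. No test was run, since each group held 1 library.

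The files do not pair identifiers with names, and the RefSeq tables used hold no Ensembl identifiers. Names of 990 identifiers were therefore recalled from the public Ensembl gene set, 548 for the gene lists and 442 after values had been seen. Of 980 with a RefSeq span, 83.5% matched it within 10%, against 3.57% of mismatched pairs. For genes recalled after values and spans had been seen, such as Tead3 and Mtmr1, this check is not independent. One identifier, of Snhg8, was corrected after its length did not match, and the 4-fold limit beyond which a name was not used was set with Atf3 in view.

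The members, lists and rules were chosen with earlier results of these data known. Named genes are, among named genes with at least 100 reads on average in each fraction, the 6 per class with the largest smaller log2 ratio (both fractions) or the largest difference (other classes), together with, from each list, up to 4 members in a class and the member with most reads. Other list members and genes of a class are named as examples chosen after their values were seen. Some genes that meet these rules are not reported here. Macrophage, endothelial and neural lists had no counted gene. Alternatives tried were a pseudocount of 1 RPKM, other read minimums, 3 other scales, fold thresholds of 1.5 and 3, length-supported names and spans over 200 bp; the last 2 were chosen after seeing the data.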

Additional observations from a re-analysis of the deposited data

Results flagged for a closer look

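Of the named genes whose fractions moved past 2-fold in opposite directions, 12 were flagged. With 1 library per group, the difference between fractions was not tested for any of them. The difference (chromatin log2 ratio minus cytoplasm log2 ratio) was 3.46 for Klhl21, 2.82 for Osgin1, 2.58 for Stard4, 2.51 for Grwd1, 2.45 for Srxn1 and 2.42 for Tnfrsf12a, which were higher in chromatin and lower in cytoplasm after heat shock. It was -5.81 for Tead3, -5.32 for Kif21b, -4.01 for Gys1, -3.90 for Chpt1, -3.59 for Elovl4 and -3.49 for Madd, which were lower in chromatin and higher in cytoplasm. The counting interval of each difference excluded 0. This is no separate support, since the genes were picked for large opposite changes in these same values.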

How the results depend on the processing

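Counts are given in this order where they moved by more than 1.5 times: difference of 1 or more, difference of -1 or less, up in both, down in both, up in chromatin, down in chromatin, up in cytoplasm, down in cytoplasm, chromatin up with cytoplasm down, and the reverse. With a pseudocount of 1 RPKM and a mean of at least 1 RPKM they were 737, 202, 51, 11, 335, 102, 65, 71, 14 and 1. Without a minimum of reads they were 4040, 2152, 1201, 1056, 1256, 730, 756, 1081, 208 and 175, and at 100 reads 1108, 212, 68, 219, 317, 92, 59, 181, 11 and 10. With each fraction centred on a median of 0, differences of 1 or more numbered 915 and of -1 or less 1272, with 378 up in both, 140 down in both, 652 down in chromatin, 275 up in cytoplasm, 79 down in cytoplasm and 15 up in chromatin but down in cytoplasm. With the same RPKM sum, these differences numbered 1038 and 1171, with 1913 down in both, 186 up in chromatin, 630 down in chromatin, and 21 and 70 in opposite directions. Without the 10 genes with most reads, 306 were down in both and 348 down in cytoplasm. At the other fold thresholds, the difference between fractions had to reach that fold too, in place of a log2 value of 1. At 3-fold the counts were 767, 308, 152, 81, 215 and 100, then 87 down in cytoplasm, and 4 and 11 in opposite directions. At 1.5-fold they were 4008, 1172, 373, 1874 and 886, then 1738 down in cytoplasm, and 497 and 96 in opposite directions. The pseudocount turned the sign of the difference for Egr1 (0.52), H2-Q1 (-2.65), Atf3 (0.42) and Rbfox3 (0.0), all near 0 RPKM in at least 1 library. No count moved by over 1.5 times without spans up to 200 bp. No paired analysis was possible because each group held 1 library, and for the same reason no replicate could be left out. At 20 reads on average, counting error alone can move a gene past 2-fold.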

Other observations

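Other named genes stood outside the gene lists. Zfand2a, Phlda1 (a regulator of cell survival) and Errfi1 (an inhibitor of the EGF receptor) were up in both fractions, with chromatin and cytoplasm log2 ratios of 4.58 and 2.37 for Phlda1. Nfe2l2, which encodes the transcription factor NRF2, was down in chromatin alone (-1.38 and 0.41). Txnip, an inhibitor of thioredoxin, was down in chromatin and up in cytoplasm (-1.04 and 1.86). Fasn, the fatty acid synthase, was up in chromatin and down in cytoplasm (1.09 and -1.17).

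Ccnd1, which encodes cyclin D1, was up in chromatin alone (1.73 and -0.41), as were Fen1, a nuclease of DNA replication (2.10 and -0.94), and Map2k3, a kinase upstream of p38 (3.22 and 0.65). Vegfa, an angiogenic growth factor, was up in cytoplasm alone (0.39 and 1.44). Tfrc, the transferrin receptor (0.90 and -1.18), and Mat2a, which makes S-adenosylmethionine (0.19 and -1.67), were down in cytoplasm alone. These genes were chosen after their values were seen.

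The endothelial marker Pecam1 had 49 reads in control chromatin and 3542 after heat shock, while the other endothelial markers remained low. It stood at 0.0671 RPKM in cytoplasm after heat shock and was not listed in control cytoplasm. Its name rests on the identifier alone.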
